A study of Mus musculus with 8 samples.

Results

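The 8 genes described here encode the D-type cyclins (Ccnd1, Ccnd2, Ccnd3), the kinases they activate (Cdk4, Cdk6) and the CIP/KIP inhibitors (Cdkn1a, Cdkn1b, Cdkn1c), 8 of the 32285 genes listed for every cell. They were selected by name, and with measured values in view: Ccnd1 was known to be higher in endothelial and macrophage sums of TAN libraries. The selection used the Ad-Lib and TAN sums of the progenitor, endothelial, macrophage, T and B gates. For that reason the values of all 8 genes by feeding group in these gates and their subsets are given as descriptions. Counts of calls stand beside the share over all genes, and no test is read from them. The samples were single-cell suspensions of the stromal vascular fraction (SVF), the non-adipocyte cells released by collagenase from the inguinal white adipose depot of male C57BL/6 mice (C57BL/6J in the study's text). Ad-Lib mice (4 libraries, replicates 1, 3, 5 and 7) ate freely, and TAN mice (4 libraries, replicates 2, 4, 6 and 8) were offered food in 2 windows each night, with no genetic modification in either group. The labels give an age of 8 weeks for both groups, whereas the study's text describes older animals on long-term feeding, and the study's text counts 4 mice in each group, which the labels do not tie to single libraries.

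A cell leaves G1 when a D-type cyclin, whose synthesis follows mitogenic signals, binds Cdk4 or Cdk6 and the complex phosphorylates the retinoblastoma protein, which then releases E2F transcription factors. The CIP/KIP proteins bind cyclin-CDK complexes and hold back CDK2, and p21 and p27 also help to assemble cyclin D complexes. Cdkn1a (p21) is a classical p53 target that also responds to stress and growth signals, Cdkn1b (p27) is controlled mostly through protein turnover, and Cdkn1c (p57) is an imprinted gene linked to quiescence. In the adipose tissue of adult animals most stromal and vascular cells are not dividing, while resident macrophages and lymphocytes can divide locally.

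GENCODE M21, matched by gene identifier, gives all 8 genes as protein coding in GRCm38. Ccnd1 (ENSMUSG00000070348) lies on chromosome 7 from 144929931 to 144939925 and Cdkn1c (ENSMUSG00000037664) on the same chromosome from 143458339 to 143461050, both on the minus strand. Ccnd2 (ENSMUSG00000000184) lies on chromosome 6 from 127125162 to 127152193 on the minus strand, and Cdkn1b (ENSMUSG00000003031) from 134920401 to 134925513 on the plus strand. Ccnd3 (ENSMUSG00000034165) spans 47505051 to 47599691 and Cdkn1a (ENSMUSG00000023067) spans 29090976 to 29100727, both on the plus strand of chromosome 17. Cdk4 (ENSMUSG00000006728) occupies 127063534 to 127067920 of chromosome 10 and Cdk6 (ENSMUSG00000040274) 3341485 to 3531008 of chromosome 5, again on the plus strand.

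Cdkn1a is shown by sequence because it was lower in TAN in several cell types, and the table of RefSeq promoters (250 bases before to 50 after a start, GRCm38.p6) holds 2 starts for it. Both are shown because they carry different motifs, with the motifs found in capitals: a pair of p53 half-sites at -73 and -51 from the upstream start and a pair of GC boxes (GGGCGG) at -104 and -46 from the downstream start.
Cdkn1a upstream promoter, chr17:29090729-29091028, plus strand: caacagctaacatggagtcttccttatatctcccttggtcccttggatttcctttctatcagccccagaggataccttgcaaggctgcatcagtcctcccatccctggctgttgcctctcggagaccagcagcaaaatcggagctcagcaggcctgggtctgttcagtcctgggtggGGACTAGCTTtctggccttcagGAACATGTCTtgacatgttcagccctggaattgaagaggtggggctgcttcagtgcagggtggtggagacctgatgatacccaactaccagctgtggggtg
Cdkn1a downstream promoter, chr17:29093519-29093818, plus strand: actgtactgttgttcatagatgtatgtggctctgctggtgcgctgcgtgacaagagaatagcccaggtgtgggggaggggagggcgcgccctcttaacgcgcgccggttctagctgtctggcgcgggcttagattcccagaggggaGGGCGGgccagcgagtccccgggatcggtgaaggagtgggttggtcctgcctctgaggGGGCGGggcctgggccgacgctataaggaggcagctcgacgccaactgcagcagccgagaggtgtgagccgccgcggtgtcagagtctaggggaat
The table matched 5 of the 8 members, with 7 promoters. Searched on both strands, the GC box was in 5 of these 7 and in 35.7% of the 32851 mouse promoters of the same length, the E-box CACGTG in 2 (Cdk4 and Cdk6) and 7.15%, and the AP-1 site TGACTCA in 0 and 5.20%. The p53 half-site was in 1 of the 7 and in 8.36% of all promoters, and none of these matches says that a factor was bound.

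Levels are in CPM, the usual depth-scaled unit of counts: the UMIs (unique molecular identifiers, 1 per captured transcript) of a gene summed over the cells of a library that passed a marker gate, per 1000000 UMIs of those cells. The 8 libraries held 25320800 to 37140950 UMIs each in 44427 barcodes, of which 36370 passed the cell filters and 30626 passed 1 gate. The gates held 9838 progenitors, 7971 endothelial cells, 4196 macrophages, 3860 T cells, 2679 B cells and 696 pericytes and smooth muscle cells. Cells entered a gate through its markers, and Pdgfra, for one, was detected in 83.4% of progenitors against 0.818% of other gated cells and Cdh5 in 93.1% of endothelial cells against 1.78%. Of 80 markers, 1 (Cd209a, in the dendritic gate) was more frequent outside its gate. B cells were few in the libraries Ad-Lib 1 (21) and Ad-Lib 7 (23), 252 barcodes occurred in more than 1 library, and leaving out these shared barcodes changed no direction among the members. Because the reads sample 3′ ends, levels were compared for 1 gene across cells and never between genes, and intervals on summed UMIs cover counting error only.

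Each member had its own distribution over the 5 large cell types (8 libraries, both groups pooled; exact two-sided sign-flip test over libraries, smallest possible p 0.0078125, adjusted over 80 pairs). Of the 80 pairs, 69 passed an adjusted p of 0.05. Ccnd1 was highest in macrophages (mean 236 CPM), then endothelial cells (157), progenitors (47.9), T cells (29.4) and B cells (8.28), and of these neighbours only progenitors and T cells did not differ beyond their spread (exact sign-flip test, adjusted p = 0.0792). That last order came from TAN, where Ccnd1 averaged 53.3 CPM in progenitors and 15.5 CPM in T cells, whereas the Ad-Lib means were 42.5 and 43.3 CPM. Ccnd2, a cyclin prominent in lymphocytes, ran the other way: T cells came first (504), followed by endothelial cells (141), progenitors (119), B cells (60.6) and macrophages (24.2), each below the one before, although progenitors and endothelial cells no longer separated with at least 4 markers (exact sign-flip test, adjusted p = 0.0616). Ccnd3 also led in T cells (164) ahead of endothelial cells (93.1), which were above progenitors (77.3), while progenitors, B cells (55.3) and macrophages (51.4) were not separated from the next in the order.

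Cdk4 varied least, from 82.7 CPM in T cells through progenitors (69.3) to endothelial cells (58.3), B cells (52.8) and macrophages (40.2), and the last neighbours in that order did not separate. Its partner in function, Cdk6, was instead concentrated in macrophages (48.0) and T cells (44.2), with B cells (16.4), endothelial cells (11.996) and progenitors (3.73) below them. Of its 10 pairs, macrophages and T cells (exact sign-flip test, adjusted p = 0.585), B and endothelial cells (0.617) and B cells and progenitors (0.194) did not separate, while endothelial cells were above progenitors. B cells had the lower Cdk6 mean in Ad-Lib (11.9 against 13.7 CPM in endothelial cells, with 0 UMIs in the few B cells of Ad-Lib 1 and 7) and the higher in TAN (20.9 against 10.3 CPM), and the sign of their mean log2 difference turned with a pseudocount of 10 CPM. Pooling also hid opposite orders of Cdk6: T cells had the higher mean in Ad-Lib (59.0 against 37.9 CPM) and macrophages in TAN (58.0 against 29.3 CPM). Cdkn1a was highest in endothelial cells (262), then macrophages (147), progenitors (44.5), T cells (38.4) and B cells (6.47), and only progenitors and T cells were not separated. The Cdkn1a means of endothelial cells and macrophages lay closer in TAN (144 and 125.5 CPM) than in Ad-Lib (380 and 168.8 CPM), with TAN 6 in the reverse order. T cells were above progenitors for Cdkn1a in Ad-Lib (59.6 against 42.6 CPM) and below in TAN (17.2 against 46.4 CPM). Cdkn1b was highest in T cells (148) and B cells (107) and lowest in macrophages (43.9), with endothelial cells (85.7, separated from B cells only with at least 4 markers) and progenitors (62.6) between. Cdkn1c was found mostly in endothelial cells (223) and progenitors (140), with macrophages (9.19), T cells (4.21) and B cells (2.78, not separated from T cells) far below. Its mean log2 difference of progenitors minus endothelial cells was -1.08 in Ad-Lib and -0.176 in TAN, with that sign in 6 of 8 libraries.

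**Figure D1:**
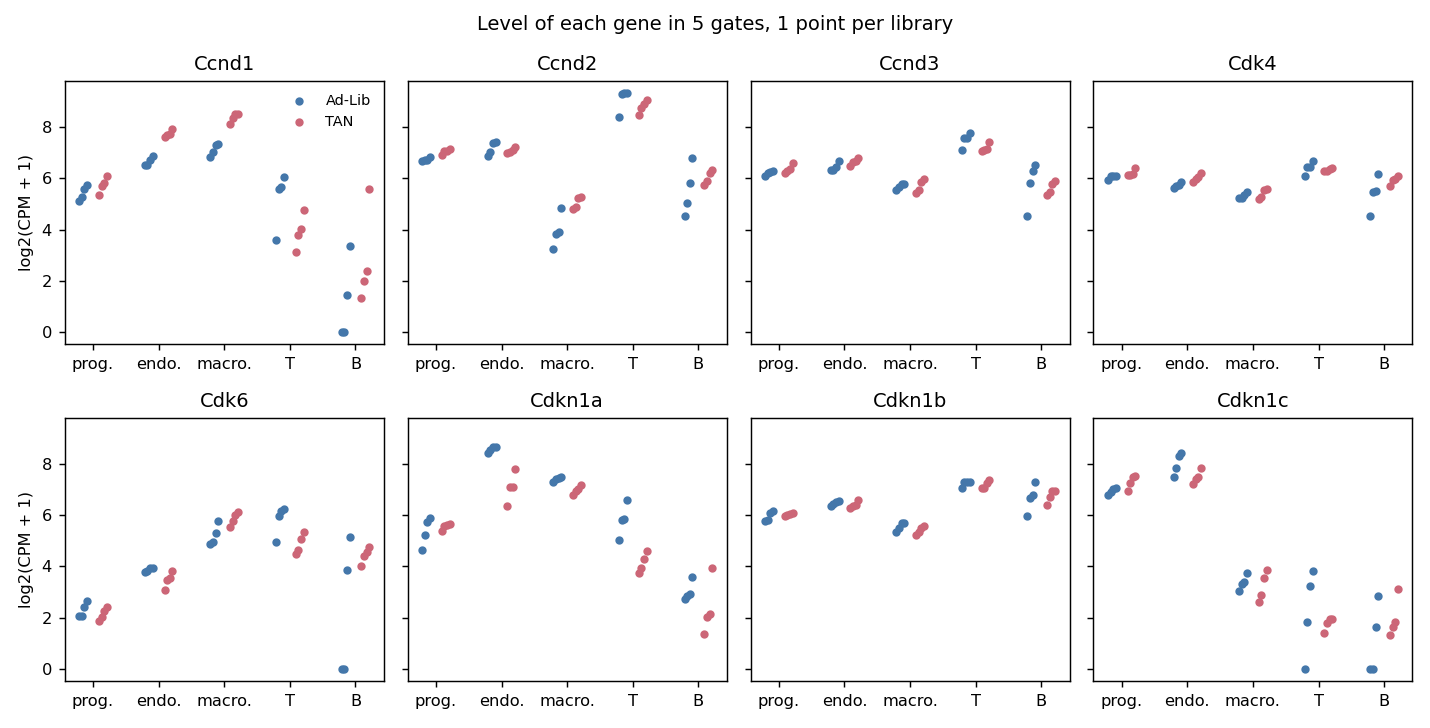
Level of each of the 8 genes in 5 cell types, as log2(CPM + 1) on the vertical axis, 1 point per library (4 Ad-Lib and 4 TAN). Ccnd2 and Ccnd3 sit highest in T cells, Ccnd1 in macrophages and endothelial cells, Cdkn1a in endothelial cells and Cdkn1c in endothelial cells and progenitors.

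Over the 11 cell types and subsets with enough cells, the gene most like Ccnd1 among 9806 was Cdkn1a (Pearson r of log2(CPM + 1) 0.898), followed by Tubb2a (0.895) and Hfe (0.874). Arl2bp (0.969) was the most like Ccnd2, Tle5 (0.964) the most like Ccnd3, Rwdd1 (0.939) the most like Cdk4 and Sept9 (0.933) the most like Cdk6. For the inhibitors, Cttnbp2nl (0.923) came first for Cdkn1a, Carns1 (0.937) for Cdkn1b and Me1 (0.986) for Cdkn1c. These are descriptions over 11 points that share their libraries, with the 3 progenitor subsets in place of the whole progenitor gate.

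Between feeding groups, a gene was called where edgeR's quasi-likelihood test gave an adjusted p under 0.05 over all genes tested and the groups differed by at least 1.5-fold. Endothelial cells had 2.22% of 10787 genes called (239) and macrophages 0.584% of 9927 (58). Among the members, 2 of 8 were called in each, Ccnd1 and Cdkn1a in endothelial cells and Ccnd1 and Ccnd2 in macrophages, and nothing is read from these counts because the genes were chosen on those comparisons.

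Ccnd1 was about 2 times as high in TAN endothelial cells. Its levels were 91.1, 115.9, 103.3 and 90.6 CPM in Ad-Lib 1, 3, 5 and 7 and 214.3, 206.9, 193.8 and 241.1 CPM in TAN 2, 4, 6 and 8. The groups did not overlap, with means of 100.2 ± 12.02 and 214 ± 19.9 CPM (SD, n = 4 each) and a fitted log2 difference of 1.11 ± 0.10 (SE). In macrophages Ccnd1 read 113.9, 131.0, 158.0 and 159.6 CPM in Ad-Lib and 275.1, 361.5, 360.8 and 324.7 CPM in TAN, a log2 difference of 1.24 ± 0.10 between means of 140.6 ± 22.1 and 330.5 ± 40.7 CPM. Every TAN library was above every Ad-Lib library here too.

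Capillary and arterial endothelial cells and Lyve1+ macrophages each had more Ccnd1 in TAN, and venous cells did not separate. Capillary endothelial cells, the bulk of the endothelial gate, went from a mean of 96.0 to 210.5 CPM of Ccnd1 (log2 difference 1.16) and arterial cells from 76.2 to 182.8 CPM (1.36). Lyve1+ macrophages, the tissue-resident perivascular type, went from 140.3 to 337.3 CPM (1.27). Venous cells, with 3 usable libraries in each group, carried 346 ± 67.4 and 370.3 ± 112 CPM of Ccnd1 with overlap, and were not fitted. Both means were above the capillary means of their groups.

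A Ccnd1 UMI was detected in a larger share of TAN cells. Such a share also rises with the level per cell, so it cannot tell more expressing cells from a higher level in each. With every cell thinned to 1500 UMIs, a Ccnd1 UMI was found in 9.67% ± 0.74 of Ad-Lib and 19.1% ± 1.69 of TAN endothelial cells (SD, n = 4 each), and in 16.5% ± 2.50 and 32.4% ± 2.73 of macrophages. Without thinning these shares were 19.4% and 33.3% in endothelial cells and 36.7% and 52.95% in macrophages. B cells, the type with the lowest Ccnd1 level and a median of 3548 and 3486 UMIs against 3716 and 3759 in endothelial cells, gave 0.20% and 0.39% after thinning, and a share at that level is read as background.

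**Figure D2:**
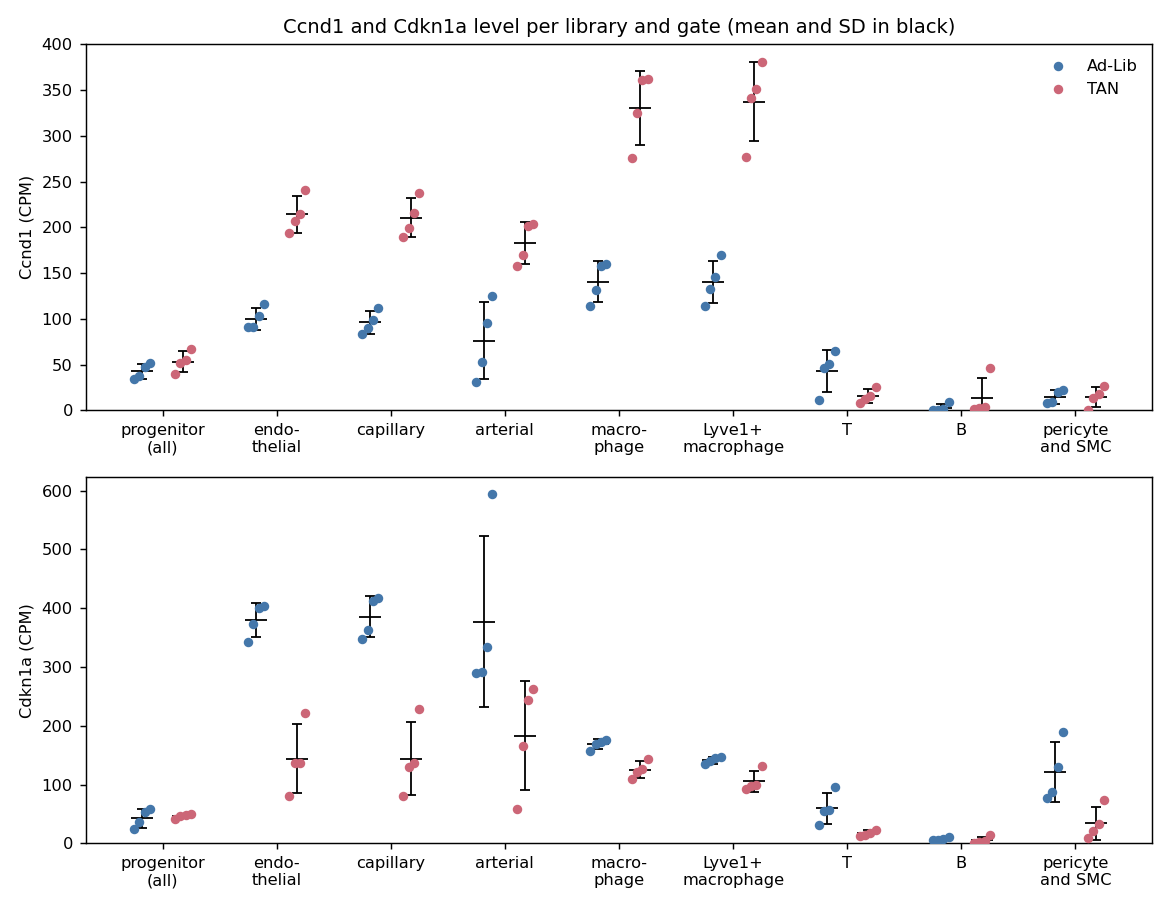
Ccnd1 and Cdkn1a levels (CPM, vertical axis) in 9 cell types and subsets, 1 point per library for Ad-Lib and TAN, with the mean and SD of 4 libraries in black. In endothelial cells the TAN points lie above the Ad-Lib points for Ccnd1 (193.8 to 241.1 against 90.6 to 115.9) and below them for Cdkn1a (80.5 to 222.6 against 342.5 to 403.5).

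Cdkn1a went the opposite way in endothelial cells. Its levels were 403.5, 342.5, 400.2 and 373.9 CPM in Ad-Lib and 136.5, 222.6, 80.5 and 137.6 CPM in TAN (means 380 ± 28.3 and 144 ± 58.6 CPM; log2 difference -1.36 ± 0.22). No TAN library reached the lowest Ad-Lib library, and the spread among TAN libraries was the wider. Capillary cells (385.5 and 144.4 CPM) and arterial cells (377 and 183 CPM) both had the lower Cdkn1a mean in TAN, as did venous cells (206 and 68.8 CPM, 3 libraries each). In macrophages Cdkn1a was 172.0, 157.6, 169.5 and 176.2 CPM in Ad-Lib and 109.8, 121.2, 143.9 and 127.2 CPM in TAN, a smaller difference (log2 -0.43 ± 0.08) without overlap.

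Among the other members, Ccnd2 in macrophages, at low levels, read 8.4, 13.4, 27.4 and 14.1 CPM in Ad-Lib and 28.6, 37.3, 26.8 and 37.2 CPM in TAN (log2 difference 1.10 ± 0.25), and the groups overlapped at Ad-Lib 5 and TAN 6. Cdk6 in macrophages went from 28.7, 30.0, 54.1 and 38.9 CPM to 46.0, 69.2, 54.2 and 62.7 CPM (0.64 ± 0.16), again with overlap. Cdk4 in endothelial cells was slightly higher in every TAN library (57.7 to 72.3 against 48.8 to 56.3 CPM; 0.32).

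Arterial cells, a small subset, had levels of Ccnd2 and Cdk6 unlike those of capillary cells. Ccnd2 averaged 326 and 347 CPM there in Ad-Lib and TAN, against 134 and 119 CPM in capillary cells. Cdk6 in arterial cells, below the count filter of the fit, was 37.1, 65.5, 85.6 and 67.4 CPM in Ad-Lib and 17.5, 27.1, 12.7 and 16.3 CPM in TAN. Every TAN library was below every Ad-Lib library, but these levels rest on 79 Cdk6 UMIs in 411 cells over the 8 libraries. The share of all genes without such overlap was not computed, so nothing is read from the order. Cdkn1c in endothelial cells was 180.3, 227.6, 312.2 and 341.2 CPM in Ad-Lib and 180.0, 166.6, 226.3 and 146.7 CPM in TAN (-0.53 ± 0.16), and these overlapped.

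Measures of cell quality moved with the groups in the same gates. The mean mitochondrial share was 2.01 to 2.64% in Ad-Lib and 3.05 to 3.85% in TAN endothelial cells, and 2.23 to 3.12% and 2.89 to 4.02% in macrophages. The summed level of 7 progenitor transcripts in endothelial cells was 225 to 327 CPM in Ad-Lib and 149 to 177 CPM in TAN, and that of 7 adipocyte transcripts in macrophages 583 to 1128 and 1111 to 1480 CPM, with no gene of either list at 0 in all libraries. Their part in the Ccnd1 and Cdkn1a differences was not tested.

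**Figure D3:**
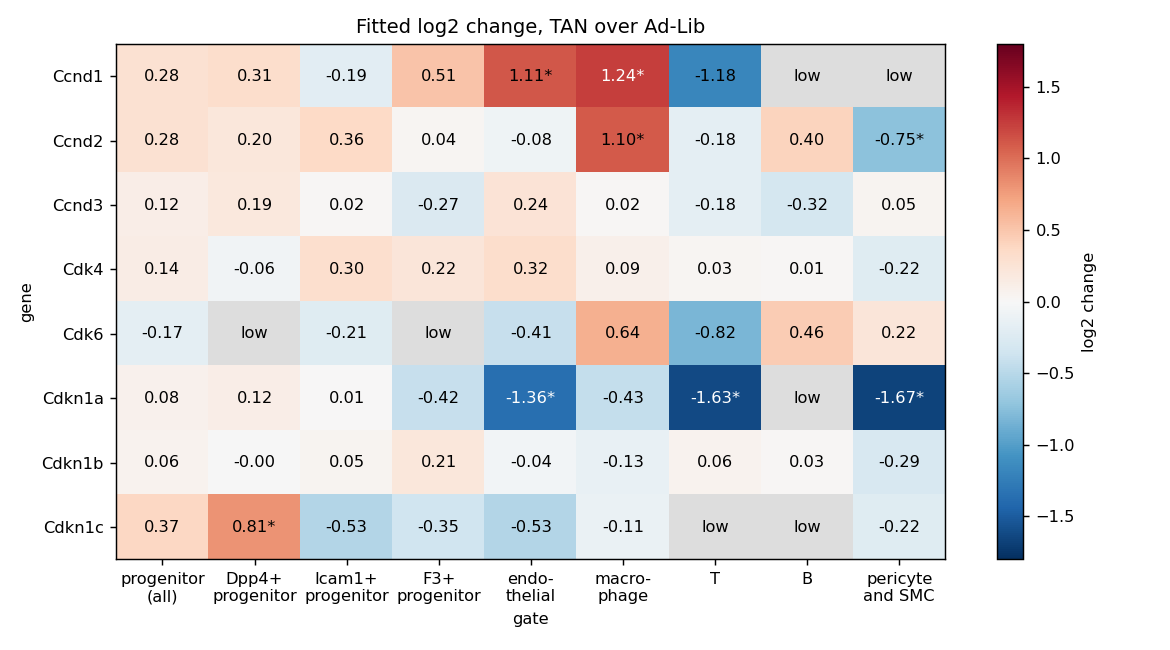
Fitted log2 difference (TAN over Ad-Lib, colour scale) of the 8 genes (rows) in 9 cell types and subsets (columns); an asterisk marks a gene past the call rule, a description in all gates but pericytes and smooth muscle, and "low" a gene below the count filter. Ccnd1 is 1.11 in endothelial cells and 1.24 in macrophages, Cdkn1a is -1.36 in endothelial cells, -1.63 in T cells and -1.67 in pericytes and smooth muscle, and Cdkn1b stays near 0 throughout.

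In T cells 2.96% of 8759 genes were called, and 1 of the 7 members above the count filter was among them, from which nothing is read because the selection used these sums. This was Cdkn1a, with 95.5, 31.8, 56.4 and 54.8 CPM in Ad-Lib and 18.3, 14.3, 12.6 and 23.4 CPM in TAN. All TAN libraries were lower (means 59.6 ± 26.4 and 17.2 ± 4.83 CPM, log2 difference -1.63 ± 0.28). Over the 8 fits that leave out 1 library the difference was -1.90 to -1.32, and 3 of these fits kept the call.

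The makeup of the T gate differed as well. T cells with naive markers (Ccr7, Lef1 and others) were 16.4, 61.8, 23.9 and 27.5% of the gate in Ad-Lib 1, 3, 5 and 7 and 63.0, 79.3, 78.9 and 69.4% in TAN 2, 4, 6 and 8. Within naive-like T cells the log2 difference of Cdkn1a was -1.56 and within resident-like T cells it was -0.75. The number of genes called in T cells was 1169 without Ad-Lib 3 and between 1 and 324 without any other library.

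The mean mitochondrial share of the T gate was 2.20 to 2.97% in Ad-Lib and 3.02 to 3.78% in TAN, without overlap. B-cell transcripts in the T gate, 5 genes of which none was at 0 in all libraries, summed to 873 to 17591 CPM in Ad-Lib and 597 to 1029 CPM in TAN. The part of either in the Cdkn1a difference was not tested. Cdk6 in T cells was 61.5, 29.7, 69.6 and 75.3 CPM in Ad-Lib and 32.3, 21.3, 24.2 and 39.2 CPM in TAN, a log2 difference of -0.82 ± 0.24 with overlap at Ad-Lib 3. Ccnd1, at 50.2, 11.2, 46.8 and 65.1 CPM in Ad-Lib and 26.0, 15.3, 12.996 and 7.7 CPM in TAN T cells, also overlapped at Ad-Lib 3 (-1.18 ± 0.44). In the T gate as a whole the fitted Ccnd1 difference had the opposite sign to that in endothelial cells and macrophages. Pooled over both groups, naive-like T cells had less Ccnd1 than resident-like T cells (23.6 against 44.2 CPM) and less Cdk6 (31.5 against 64.7 CPM). The part of the gate's makeup in these differences was not tested.

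The selection did not use pericytes and smooth muscle cells, the mural cells that wrap vessels, and the members were tested there with p adjusted over all genes. These p-values measure the spread between 4 and 4 libraries, which may be technical in part. Mural cells had 1.89% of 5508 genes called and 2 of the 7 members tested. Cdkn1a was 130.03, 87.5, 77.0 and 189.7 CPM in Ad-Lib and 73.7, 20.9, 9.7 and 32.8 CPM in TAN. It was lower in all TAN libraries (means 121 ± 51.2 and 34.3 ± 27.9 CPM; -1.67 ± 0.32, edgeR adjusted p = 0.00399) and kept its call without any 1 library, whereas DESeq2 gave an adjusted p of 0.125. The size depended on TAN 2, the highest TAN library: without it the log2 difference was -2.52, and without any other library it was -1.81 to -1.41. Ccnd2 was 172.8, 197.4, 282.3 and 330.1 CPM in Ad-Lib and 197.8, 94.2, 130.6 and 160.9 CPM in TAN, where TAN 2 overlapped Ad-Lib (-0.75 ± 0.20, edgeR adjusted p = 0.0432), and this call was lost with DESeq2 (0.0788), when every kept cell was assigned by likelihood (-0.21, edgeR adjusted p = 0.712), and without Ad-Lib 5 or 7 or TAN 4, 6 or 8. Adipocyte transcripts summed to 14561 to 16703 CPM in Ad-Lib and 15336 to 26446 CPM in TAN mural cells, and their part was not tested.

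Progenitors, the fibroblast-like cells from which adipocytes arise, had 0.515% of 12232 genes called and none of the 8 members. DESeq2 called 0 of the 8 as well, and nothing is read from these counts because the selection used these sums. Ccnd1 was 51.8, 47.0, 37.4 and 33.9 CPM in Ad-Lib and 55.3, 39.8, 66.6 and 51.6 CPM in TAN progenitors (log2 difference 0.28). Cdkn1a had a log2 difference of 0.08 there. Ccnd2 was higher in every TAN library but small in size (105.9 to 131.2 CPM on average; 0.28).

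The progenitor subsets differed from each other. Dpp4+ progenitors, the interstitial multipotent cells, had 0.448% of 10724 genes called, and 1 of 7 members above the count filter was among them, Cdkn1c, from which nothing is read. It was 165.6, 178.2, 151.6 and 161.6 CPM in Ad-Lib and 337.7, 311.5, 302.1 and 207.0 CPM in TAN. The groups did not overlap (means 164 ± 10.997 and 289.6 ± 57.1 CPM, 1.76-fold, log2 difference 0.81 ± 0.14). The call was kept in 3 of the 8 fits that leave out 1 library.

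Icam1+ progenitors, the committed preadipocytes, had 1.65% of 11144 genes called and 0 of 8 members by the 1.5-fold rule in edgeR. DESeq2 called 0 of the 8 as well, and nothing is read from these counts. Here Cdkn1c ran in the opposite direction, at 72.9, 81.3, 81.3 and 100.7 CPM in Ad-Lib and 62.6, 67.1, 46.9 and 58.7 CPM in TAN. The groups did not overlap, and the difference was below 1.5-fold (-0.53 ± 0.12). Ccnd2 was 115.1, 108.8, 105.9 and 107.8 CPM in Ad-Lib and 153.6, 136.3, 140.3 and 145.0 CPM in TAN (0.36 ± 0.09), again without overlap. Cdk4 was 64.5, 60.6, 59.2 and 65.1 CPM in Ad-Lib and 74.7, 72.5, 98.0 and 72.9 CPM in TAN, above Ad-Lib in every library (0.30 ± 0.10).

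The Cdkn1c levels of Dpp4+ and Icam1+ progenitors thus stood further apart in TAN. The ratio of the Dpp4+ to the Icam1+ level in the same library was 1.98 ± 0.308 in Ad-Lib and 5.003 ± 1.23 in TAN (SD, n = 4 each), given as a description because both differences had been seen first. F3+ progenitors had 0.109% of 8279 genes called and 0 of 7 members by edgeR, and 0 members by DESeq2, from which nothing is read. Cdkn1c there averaged 122 and 101 CPM in Ad-Lib and TAN.

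Adipocyte transcripts (7 genes, none at 0 in all libraries) moved with the groups in these subsets. They summed to 349 to 452 CPM in Ad-Lib and 502 to 552 CPM in TAN Dpp4+ progenitors, and to 1701 to 2068 and 2599 to 4104 CPM in Icam1+ progenitors. Their part in the Cdkn1c and Ccnd2 differences was not tested.

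**Figure D4:**
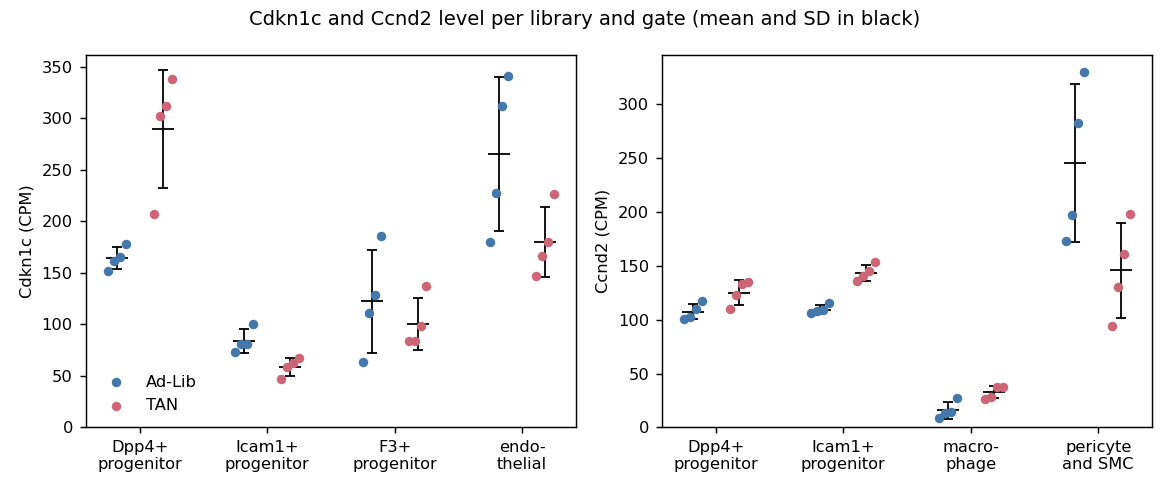
Cdkn1c in Dpp4+, Icam1+ and F3+ progenitors and endothelial cells, and Ccnd2 in Dpp4+ and Icam1+ progenitors, macrophages and pericytes and smooth muscle (CPM, 1 point per library, mean and SD of 4 in black). Cdkn1c is higher in TAN in Dpp4+ progenitors (207.0 to 337.7 against 151.6 to 178.2) and lower in Icam1+ progenitors (46.9 to 67.1 against 72.9 to 100.7).

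The remaining cell types gave little. In B cells 0% of 7567 genes were called by edgeR, with 160 under an unadjusted p of 0.05 and 0 called by DESeq2. Of the 5 members above the count filter 0 were called, from which nothing is read because the selection used these sums. Ccnd1, Cdkn1a and Cdkn1c were below the count filter in B cells. Dendritic cells (7 libraries with at least 10 cells) had 0% of 4407 genes called by edgeR (149 at an unadjusted p under 0.05, 0 by DESeq2) and 0 of 7 members. Natural killer cells (7 libraries) had 0.131% of 1524 called and 0 of 4 members, of which Ccnd2 and Ccnd3 had an unadjusted p under 0.05. Schwann cells (6 libraries) had 0% of 670 called by edgeR (25 unadjusted, 0 by DESeq2) and 0 of 2 members, and DESeq2 called 0 members in each of these gates. Ccnd3, Cdk4, Cdk6 and Cdkn1b passed the call rule of edgeR in no gate or progenitor subset. DESeq2 called Cdk6 in macrophages and in T cells, from which nothing is read because the selection used these sums. Cdkn1b had log2 differences of 0.59 ± 0.56 in Schwann cells (43 Ad-Lib and 42 TAN cells in 3 libraries each; edgeR adjusted p = 0.928), 0.37 ± 0.35 in natural killer cells and -0.29 to 0.21 in the 9 larger cell types and subsets.

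The genes around the members were read from 9 lists in the same 9 gates, as counts over genes and gates, where the whole progenitor gate is counted beside its subsets. Over all genes 1.14% of 84927 tests in these gates were called. Other cyclins and CDKs were called in 0 of 48 tests by edgeR (3 at an unadjusted p under 0.05, 0 by DESeq2), INK4 inhibitors, which block Cdk4 and Cdk6 alone, in 0 of 18 (5 and 0), RB and E2F genes in 0 of 79 (10 and 0), and genes of cyclin and inhibitor turnover in 0 of 72 (7 and 0). E2F and S phase targets were called in 1 of 105 (16 and 2), namely Cdc6, a DNA replication licensing factor, in endothelial cells. It averaged 12.3 CPM there in Ad-Lib, against 6.38 CPM in TAN (log2 -0.91), and 1 of 105 is close to the share over all genes. The 15 S phase genes tested in endothelial cells had a median log2 difference of -0.15, beside -0.01 over all genes. Of these 15, 6 had an unadjusted p under 0.05 in edgeR, beside 1910 of all 10787 genes.

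Upstream, 6 of 67 tests on outputs of mitogen signalling and 11 of 89 on immediate early genes were called, all lower in TAN. In Icam1+ progenitors 4 of 9 mitogen outputs fell, among them Phlda1 (268 to 179 CPM), Myc (62.4 to 39.6) and Dusp6 (48.4 to 27.3, adjusted p = 0.0208 by edgeR). In the same cells 4 of 10 immediate early genes fell, including Fosb (2790 to 1872 CPM), Fosl2 (54.5 to 35.1) and Dusp1 (1161 to 767). Dusp6 (30.7 to 16.1 CPM) and Phlda1 (267 to 180 CPM) were also called in the whole progenitor gate. In T cells 5 of 10 immediate early genes fell, led by Atf3 (147 to 33.9 CPM; -1.91, edgeR adjusted p = 0.0165), Dusp1 (536 to 202) and Fos (986 to 300.2). Of the same 10 genes, 3 were called in naive-like T cells and 0 in resident-like T cells by edgeR (3 at an unadjusted p under 0.05 and 0 by DESeq2 in the latter, median log2 -0.38), and 1 to 6 genes in all were called in the T gate without Ad-Lib 1, 5 or 7 or TAN 4 or 6.

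None of the 10 immediate early genes had a positive difference in T cells (median log2 -0.97), Icam1+ progenitors (-0.49), endothelial cells (-0.36) or mural cells (-0.36), beside all-gene medians of 0.00 to 0.01 in size. Positive differences were found for 2 of the 10 in Dpp4+ progenitors (median -0.11) and in macrophages (-0.09), and for 2 of 9 in B cells (-0.48). These genes respond within minutes to tissue handling as well as to growth factors, and the labels give no dissociation time by library. Mural cells had lower Fosl2 (149 to 66.1 CPM; -1.15, edgeR adjusted p = 0.00161) and Irs2, a FOXO target of insulin signalling (170 to 71.7 CPM; -1.18). Of 66 tests on other p53 targets 2 were called: Trp53inp1 fell in T cells (104 to 59.8 CPM; -0.63), and Phlda3 rose in endothelial cells (30.9 to 54.9 CPM; 0.88), a call not made by DESeq2. As a list, 4 of 9 p53 targets had a positive difference in endothelial cells (median log2 -0.27), 3 of 6 in T cells (-0.0086), 3 of 5 in mural cells (0.09) and 4 of 8 in macrophages (0.10), the gates where every TAN library was below every Ad-Lib library for Cdkn1a. In the FOXO list 2 of 91 tests were called, Irs2 in mural cells and Klf2 in Icam1+ progenitors (1106 to 743 CPM).

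Dividing cells were rare. The test of their share by group could pass the threshold only if at least 3 of the 5 large gates separated completely, because the smallest exact p of 0.0286 becomes 0.143 for 1 gate after adjustment over 5. The shares are therefore given with no statement on whether the groups differed. Cells with at least 2 of 8 cycling markers were 2.38% of macrophages in Ad-Lib and 1.77% in TAN (89 cells; exact permutation test, p = 0.114, adjusted p = 0.571 over 5 gates). Endothelial cells gave 0.351% and 0.299% (25 cells), progenitors 0.174% and 0.0587% (12 cells), T cells 3.58% and 2.31% (103 cells) and B cells 1.77% and 0.617% (30 cells). The mean was lower in TAN in all 5 gates, a direction that turned in T and endothelial cells when 1 library was left out.

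Within a gate the cycling cells had their own pattern of members, given here as sums over all libraries with 95% Poisson intervals and no test. Ccnd1 was 452 CPM (368 to 549.7) in cycling and 156 CPM in other endothelial cells, and 287 and 203 CPM in macrophages. Cdk4, the kinase with the flattest profile over cell types, was higher in cycling cells of every gate, at 145 and 57.4 CPM in endothelial cells, 87.4 and 37.6 CPM in macrophages, 160.4 and 75.1 CPM in T cells and 149.5 and 56.8 CPM in B cells. Cdkn1a was 481 CPM (439 to 527) in cycling macrophages and 139.8 CPM in the rest.

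In T cells Ccnd2 and Cdkn1b were lower in the cycling cells. Ccnd2 was 178 CPM in cycling and 447 CPM in other T cells, while in B cells its interval in cycling cells (45.3 CPM, 27.7 to 69.96) covered the 55.5 CPM of the other cells. Cdkn1b was 91.0 and 143 CPM in T cells and 29.4 and 112 CPM in B cells. Over all libraries, cycling cells held 100 Ccnd1 UMIs against 5262 in the other endothelial cells, and 279 against 5126 in the other macrophages. These counts are not split by feeding group.

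**Figure D5:**
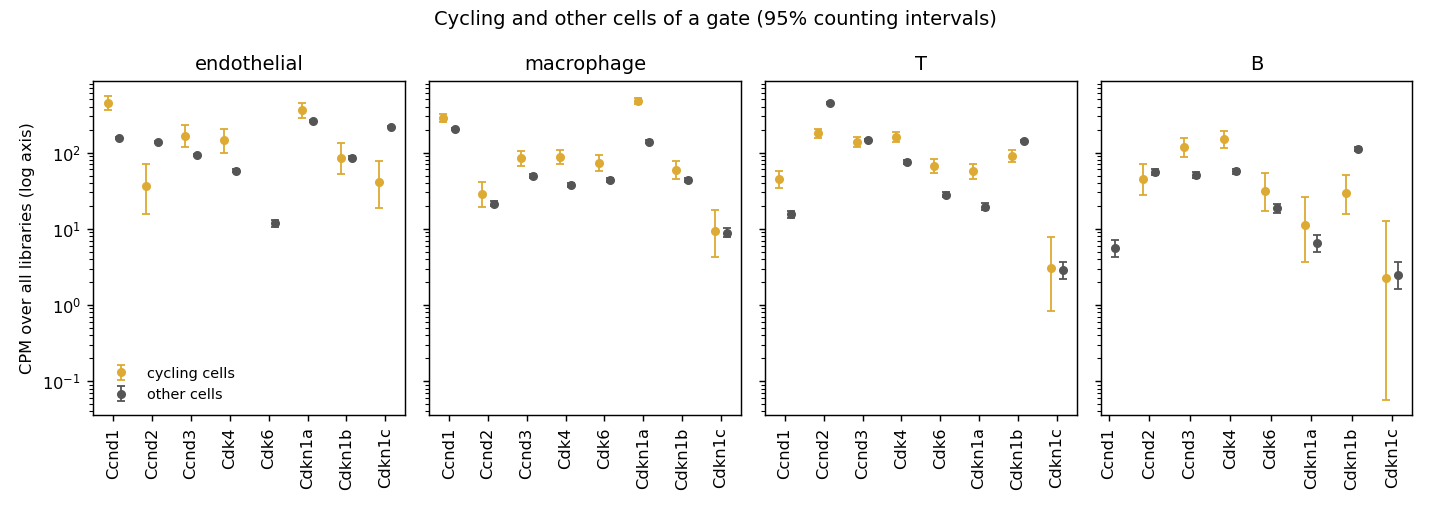
Level of each member (CPM, log axis) in cycling and in other cells of 4 gates, summed over the 8 libraries, with 95% Poisson intervals; Cdk6 in cycling endothelial cells and Ccnd1 in cycling B cells had 0 UMIs and are not drawn. Cdk4 is higher in cycling cells of all 4 gates (87.4 against 37.6 CPM in macrophages), and Cdkn1b is lower in cycling T and B cells (29.4 against 112 CPM in B cells).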

How the data were processed

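Stromal vascular cells of inguinal fat were profiled with 10x Chromium 3′ v3 chemistry in 8 libraries (4 Ad-Lib, 4 TAN). The authors deposited filtered matrices of UMI counts per gene and barcode, not normalized. The submitters' processing notes name Cell Ranger 3.0.2, Seurat, mm10 and GRCm38, whereas the matrix headers name Cell Ranger 6.0.1. No column of another series was present (0 not used).

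Cells with 700 to 30000 UMIs, 200 to 8000 genes and at most 10% mitochondrial UMIs were kept. No doublet caller was run: a cell passed a gate with at least 3 of its markers detected and no other list above 0.5 of that number, and a subset with at least 2. UMIs were summed per library and gate (at least 10 cells, 3 libraries per group) and tested with edgeR 4.0.16 (quasi-likelihood, TMM, filterByExpr, Benjamini-Hochberg) in R 4.3.3, with DESeq2 1.42.0 as an alternative. Means ± SD are of CPM over libraries. Levels between cell types were tested by exact sign flips (256) of log2(CPM + 1), and cycling shares by exact permutation (70 assignments). The gene models of the members are those of GENCODE M21. Named genes were the 8 members, at most 3 called genes per list and gate by adjusted p, and for each member the genes most alike among those with at least 20 CPM in a gate. The scripts were tested on simulated data. 1 gene of the naive-like T list was left out of that list, after the data had been seen, and is not reported here. Members, markers and lists were chosen with earlier results of these data known. Tests of the members planned for the progenitor, T and B gates and their subsets are given only as counts of calls, with the called genes named. This is because the selection used those sums. Monocyte, mast, epithelial and adipocyte gates were not tested. Alternatives were DESeq2, no count filter, at least 4 markers, assignment of every kept cell by likelihood, a 20% mitochondrial limit, no cycling cells, no shared barcodes and each library left out. Total UMIs per library, given with the results, limit the precision of genes with few UMIs in small gates.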

Additional observations from a re-analysis of the deposited data

Results flagged for a closer look

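Of 144 groups of 4 libraries examined (1 gene, 1 gate and 1 feeding group each), 13 held a library far from the other 3 by Dixon's criterion, which chance meets in about 1 of 20 groups. Several were low counts. In B cells, Ccnd1 was 46.4 CPM in TAN 2 (others 1.53 to 4.18), Cdkn1a was 14.2 CPM in TAN 6 (1.55 to 3.38) and Cdkn1c was 7.74 CPM in TAN 2 (1.53 to 2.53). In T cells, Ccnd2 was 336 CPM in Ad-Lib 3 (others 623 to 643), which was also the Ad-Lib library with the most naive-like T cells, Ccnd3 was 170.1 CPM in TAN 2 (134 to 139), and Cdkn1b was 134 CPM in Ad-Lib 7 (154 to 157).

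In progenitors, Cdk4 was 59.8 CPM in Ad-Lib 5 (others 66.4 to 67.4) and 83.6 CPM in TAN 6 (69.5 to 71.1). TAN 6 was also the high library for Cdk4 in Icam1+ progenitors, at 98.0 CPM (72.5 to 74.7). Cdk6 in Icam1+ progenitors was 8.24 CPM in Ad-Lib 5 (5.58 to 5.87), Cdkn1a in Dpp4+ progenitors was 85.3 CPM in TAN 2 (61.0 to 65.0), Ccnd2 in F3+ progenitors was 62.5 CPM in TAN 4 (93.7 to 99.2), and Cdkn1c in pericytes and smooth muscle cells was 63.4 CPM in Ad-Lib 1 (74.0 to 74.1).

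For 2 members the feeding differences of a pair of gates lay apart, in comparisons chosen after the values had been seen, so that the separation was known beforehand and no p is given. For Cdkn1c the log2 difference in Dpp4+ progenitors exceeded that in Icam1+ progenitors by 1.30. For Ccnd2 that in Icam1+ progenitors exceeded that in pericytes and smooth muscle cells by 1.14, where the mural difference was not stable to the assignment of cells.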

How the results depend on the processing

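No paired analysis was possible because the groups share no replicate numbers. Beside the fits that leave out 1 library, 439 of 455 member differences kept their direction. With DESeq2 the genes called were 135 in progenitors, 28 in F3+ progenitors, 438 in T cells, 62 in mural cells and 0 in natural killer cells. With no count filter they were 152 in progenitors, 129 in Dpp4+, 309 in Icam1+ and 199 in F3+ progenitors, 198 in macrophages, 736 in T, 1 in B, 185 in mural, 39 in dendritic, 12 in natural killer and 1 in Schwann cells. With every kept cell assigned by likelihood they were 23 in macrophages, 144 in T and 0 in natural killer cells. The 16 turned signs were small differences: by likelihood, Cdkn1a in progenitors (-0.061) and Icam1+ progenitors (-0.19), Cdk4 in T (-0.025) and B cells (-0.063), Cdkn1b in T cells (-0.0059) and Dpp4+ progenitors (0.0024), Cdkn1b in macrophages (0.0017), and Ccnd3 (-0.0040) and Cdk6 (-0.087) in mural cells. With DESeq2, Cdkn1b in Dpp4+ progenitors was 0.000960 and Ccnd2 in B cells -0.020. Cdkn1b in Dpp4+ progenitors was 0.0054 at a 20% mitochondrial limit and 0.0032 without cycling cells, Cdkn1a in Icam1+ progenitors -0.0055 with no filter, and, with at least 4 markers, Cdk4 in B cells -0.0053 and Ccnd3 in macrophages -0.0014. The Ccnd2 call in mural cells was lost by likelihood (-0.21, edgeR adjusted p = 0.712) and at the 20% limit (adjusted p = 0.0669). The cause of these changes was not tested. Leaving out shared barcodes was chosen after seeing the data.

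The Ccnd1 shares without thinning were 0.475% and 0.742% in B cells, 19.4% and 33.3% in endothelial cells and 36.7% and 52.95% in macrophages (Ad-Lib and TAN), and at 1000 UMIs 7.03% and 14.2% in endothelial cells and 12.3% and 24.5% in macrophages. Between cell types, 68 of 80 pairs passed with a pseudocount of 10 CPM and 69 with at least 4 markers, where 1 pair was lost and 1 gained. The cell-type pair lost with the pseudocount was Cdkn1c in macrophages against T cells (exact sign-flip test, adjusted p = 0.0528), and the sign turned for Cdk6 in endothelial against B cells (0.34 to -0.10, neither passing).

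Leaving out 1 library at a time, the genes called were 15 (without TAN 2) to 132 (without TAN 6) in progenitors, 9 (TAN 2) to 89 (TAN 6) in Dpp4+, 102 (TAN 2) to 229 (TAN 6) in Icam1+ and 0 (Ad-Lib 1 or TAN 2) to 14 (TAN 8) in F3+ progenitors, 143 (TAN 2) to 260 (Ad-Lib 5) in endothelial cells, 22 (TAN 2) to 79 (TAN 8) in macrophages, 1 (Ad-Lib 1 or TAN 6) to 1169 (Ad-Lib 3) in T, 34 (Ad-Lib 7) to 174 (Ad-Lib 3) in mural, 0 (Ad-Lib 7) to 4 (TAN 8) in natural killer and 0 to 1 (TAN 4) in Schwann cells. Ccnd1 ranged over log2 differences of 1.05 to 1.21 in endothelial cells and 1.16 to 1.30 in macrophages, and Cdkn1a over -1.66 to -1.15 in endothelial and -2.52 (without TAN 2) to -1.41 in mural cells. The difference in cycling cells ranged from -2.22 to 0.095 percentage points in T and from -0.196 to 0.0476 in endothelial cells. Signs turned for Ccnd1 in Icam1+ progenitors (-0.45 to 0.011) and for Ccnd2 in B cells (-0.26 to 0.84) and F3+ progenitors (-0.053 to 0.15). Those of Ccnd3 turned in Icam1+ progenitors (-0.032 to 0.073), macrophages (-0.030 to 0.077) and mural cells (-0.13 to 0.18). Signs also turned for Cdk4 in B cells (-0.11 to 0.55), Dpp4+ progenitors (-0.13 to 0.00625) and T cells (-0.092 to 0.13). Cdkn1a turned in progenitors (-0.14 to 0.30) and their Dpp4+ (-0.074 to 0.26), F3+ (-1.04 to 0.061) and Icam1+ subsets (-0.27 to 0.33). Cdkn1b turned in B (-0.068 to 0.11), T (-0.00945 to 0.16) and endothelial cells (-0.080 to 0.012) and in Dpp4+ (-0.077 to 0.053) and Icam1+ progenitors (-0.00977 to 0.12). Cdkn1c turned in macrophages (-0.45 to 0.077). Of the 8 fits that leave out 1 library, 3 kept Ccnd2 in mural cells past the threshold (edgeR adjusted p 0.0158 to 0.258).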
